A study of Rattus norvegicus with 6 samples.

Results

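The neurotrophins and their receptors were followed through the dorsal root ganglion (DRG) after nerve injury. The 7 genes were taken by name: the ligands Bdnf, Ntf3 and Ntf4, the receptor kinases Ntrk2 (TrkB) and Ntrk3 (TrkC), the p75 receptor Ngfr and the sorting receptor Sort1 (sortilin). They are 7 of 27943 gene symbols in a table of 43350 gene rows. All 7 had a row, 5 were expressed highly enough to be tested among 26663 rows, and Ntf3 and Ntf4 were not.

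RNA was sequenced from the DRG of young adult male Sprague-Dawley rats 11 days after surgery. In the CCI group (chronic constriction injury, a model of neuropathic pain) ligatures were tied loosely around the left sciatic nerve, and in the sham group the nerve was exposed and not tied. The lumbar ganglia 4 to 6 of the operated side were used, with 3 libraries per group and 1 rat per library. The labels mention a pooled sample, whereas the paper's methods describe separate animals. Both groups were of the same strain and sex. All 10 of 10 sensory neuron markers were tested and their summed level was 8800 to 9444 CPM (the count scaled to library size) in CCI and 7426 to 8656 in sham, so the labelled tissue held neuronal RNA, together with RNA of satellite glia and Schwann cells. Totals were 75423546 to 87615743 counts per library, at which 3 counts correspond to 0.0342 to 0.0394 CPM.

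Neurotrophins are small secreted dimers that keep sensory and other neurons alive during development and tune their excitability and synapses afterwards. Each mature neurotrophin binds a preferred Trk receptor tyrosine kinase, BDNF and NT-4 binding TrkB and NT-3 binding chiefly TrkC, and the activated kinase signals through the Ras-MAPK, PI3K-Akt and phospholipase C-gamma arms. All mature neurotrophins also bind p75, a death-domain receptor without kinase activity, while their uncleaved precursors bind p75 together with sortilin. In the DRG, TrkB marks groups of mechanoreceptors, TrkC marks proprioceptors and some large mechanoreceptors, and BDNF made by sensory neurons is carried to their terminals in the spinal cord.

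Bdnf was the member that differed most between the groups, and its gene starts transcription at several alternative first exons, each with its own promoter. The RefSeq table for the GRCr8 assembly, a build other than that of the counts, held 6 start windows of 300 bases for Bdnf (250 bases before the start and 50 from it), 3 for Ntf3, 1 for Ntf4, 1 for Sort1 and none for the other 3 members. They were searched on both strands for the cyclic-AMP response element TGACGTCA, its variant TGACGTGA (TCACGTCA on the other strand), the AP-1-like pattern TGANTCA, in which any middle letter was allowed, and the E-box CACGTG. These motifs do not overlap in the windows where they were found. They stood in 1.83%, 0.4%, 7.33% and 6.42% of all 33469 windows in the table. Of the members' 11 windows, 3 held a motif and all 3 belonged to Bdnf, which supplied 6 of the 11. The 11 are not all separate sequences. Windows 1 and 2 of Ntf3 are almost the same stretch, and windows 5 and 6 of Bdnf share most of their bases. The windows with the response element variant and the AP-1-like pattern are shown because they are upstream sequences of the member that was called, with the matching letters in capitals.
Bdnf start window 4, chr3:116637608-116637907, plus strand, variant beginning at −38 from the start: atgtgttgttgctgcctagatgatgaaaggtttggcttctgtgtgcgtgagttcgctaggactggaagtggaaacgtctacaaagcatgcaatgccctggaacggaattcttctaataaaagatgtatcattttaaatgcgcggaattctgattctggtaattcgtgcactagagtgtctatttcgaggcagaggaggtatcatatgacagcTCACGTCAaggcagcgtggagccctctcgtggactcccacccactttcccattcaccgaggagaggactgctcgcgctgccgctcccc
Bdnf start window 3, chr3:116621721-116622020, plus strand, AP-1-like letters beginning at −152 from the start: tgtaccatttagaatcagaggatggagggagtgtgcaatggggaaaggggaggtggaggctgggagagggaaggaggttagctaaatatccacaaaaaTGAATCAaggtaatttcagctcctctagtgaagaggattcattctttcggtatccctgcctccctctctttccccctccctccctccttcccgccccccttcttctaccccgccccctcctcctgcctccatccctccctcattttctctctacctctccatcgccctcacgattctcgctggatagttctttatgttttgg
The middle letter of the match in window 3 is not one of those of the usual AP-1 element. The remaining match was an E-box at +19 in window 2. The match in a window is a description of its letters. The counts were given per gene and not per start, so they do not show which of these promoters was in use.

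**Figure D1:**
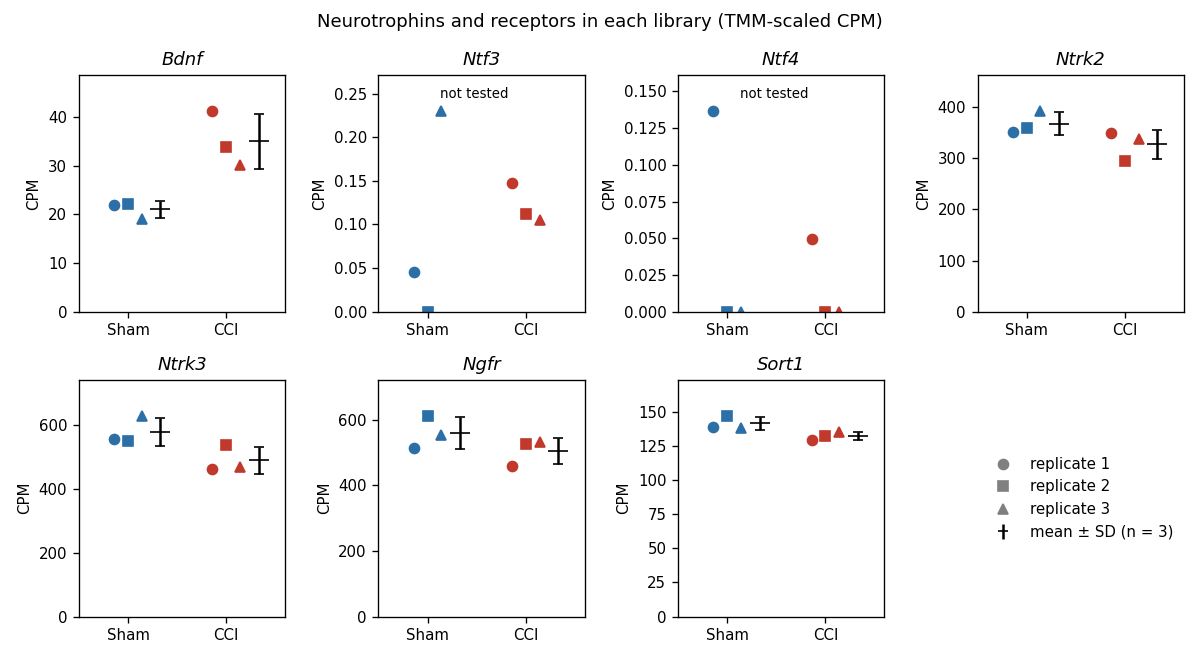
CPM of each of the 7 genes (y axes, starting at 0, a scale per gene) in the 3 sham libraries (blue) and the 3 CCI libraries (red), with the mean ± SD (n = 3) beside them for the 5 tested genes. Bdnf lay at 30.1 to 41.3 CPM in CCI and at 19.1 to 22.1 in sham, and Ntrk2, Ntrk3 and Sort1 lay lower in every CCI library than in any sham library.

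Bdnf rose in CCI and was the only tested member that passed the call used here, which asked for a log2 fold change of 0.58 or more in either direction at an unadjusted p under 0.05. Brain-derived neurotrophic factor is released by sensory neurons and raises the excitability of dorsal horn neurons through TrkB. Its row (MSTRG.18892, chromosome 3, 100768637 to 100819210, plus strand, in the build of the deposited table) joined 8 transcripts. Bdnf was at 41.3, 33.8 and 30.1 CPM in CCI 1 to 3 and at 22.0, 22.1 and 19.1 CPM in sham 1 to 3. Every CCI library was above every sham library, and CCI 1 stood highest. The underlying counts were 3349, 2722 and 2288 in CCI and 1931, 1752 and 1576 in sham. The means were 35.0 ± 5.70 CPM in CCI and 21.1 ± 1.71 CPM in sham (SD, n = 3), and the libraries spread more widely in CCI, with a coefficient of variation of 16.3% against 8.14%. The log2 fold change of Bdnf was 0.73 (SE 0.13, 95% interval 0.42 to 1.05), a 1.66-fold rise (95% interval 1.34 to 2.07), with an unadjusted p = 0.0011 and an adjusted p = 0.134 in the quasi-likelihood test of edgeR, adjusted by the Benjamini-Hochberg method. It ranked 211th of the 26663 rows by p, and 5.17% of the rows had a higher log2 fold change. When the libraries were dropped 1 at a time, the log2 fold change was 0.60 to 0.83, and Bdnf was called each time.

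In the same fit 2.57% of all rows tested were called higher and 1.26% lower, and 2.38% of the 12988 protein-coding rows were called higher. Among the 5 tested members 1 was called higher and 0 were called lower. None of the 5 reached an adjusted p under 0.05 in edgeR, against 0.0938% of all rows, 2 of the 5 had an unadjusted p under 0.05, against 10.7% of all rows, and with DESeq2 1 member, Bdnf, reached an adjusted p of 0.000119. The CCI libraries all lay above sham for 1 of the 5 members, against 8.63% of all rows, and all below sham for 3, against 8.7%. An exact two-sided permutation test of 3 libraries against 3 cannot give a p below 0.1, which is the value for Bdnf, Ntrk2, Ntrk3 and Sort1.

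NT-3 and NT-4, the other two ligands of these receptors, were close to absent from the libraries. Ntf3, which encodes NT-3, a factor that muscle spindle afferents depend on in development (ENSRNOG00000019716, chromosome 4, 158636884 to 158705885, minus strand), had 12, 9 and 8 counts in CCI and 4, 0 and 19 in sham. Its sham libraries spanned the CCI range, the sham 2 library having no count and sham 3 the most. Its mean FPKM (the deposited level, scaled to row length and library size) of 0.0578 was under the limit of 0.5 for testing, and an exact two-sided permutation test on its log2 CPM gave p = 0.4. Ntf4, which encodes NT-4 (ENSRNOG00000020783, chromosome 1, 101405314 to 101408145, plus strand), had 4, 0 and 0 counts in CCI and 12, 0 and 0 in sham. Its reads came from CCI 1 and sham 1 alone, so no difference was detectable at this depth. The sham 1 library also had the highest summed level of 6 skeletal muscle markers, 395.8 CPM, against 8.61 to 50.1 CPM in the other 5 libraries, and their part in the Ntf4 reads was not tested.

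Both Trk receptors were lower in every CCI library than in any sham library, by 11% to 15% on average, and neither passed the call. Ntrk2, the TrkB receptor for BDNF (MSTRG.12538, chromosome 17, 5926607 to 6245769, minus strand), was at 348.9, 294.4 and 338.3 CPM in CCI and at 350.7, 360.0 and 392.4 CPM in sham. CCI 1 and sham 1 were nearly equal, and CCI 2 stood lowest. The means were 327.2 ± 28.9 and 367.7 ± 21.9 CPM (SD, n = 3). The log2 fold change of Ntrk2 was −0.17 (SE 0.08, 95% interval −0.36 to 0.03), with an unadjusted p = 0.0816 and an adjusted p = 0.545 (edgeR). The interval takes in 0 and leaves out a fall of 0.58.

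The Ntrk2 row joined 10 transcripts, 7 of them assembled from the reads. TrkB is known as a full-length kinase and as truncated forms without the kinase domain, and the count of the row does not separate them. There were 3 further rows with the symbol Ntrk2 on the opposite strand inside the gene, 785 to 2575 bp long and without a transcript type, with 641 to 828 counts together in a CCI library and 721 to 1122 in a sham library. Their sum was 2.51% to 2.92% of the Ntrk2 count in CCI and 2.53% to 3.46% in sham. The library kit kept the strand, but the strand setting of the counting was not given, so reads of the opposite strands may not be fully separated in these rows. No other member shared its place with another row.

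Ntrk3, the TrkC receptor for NT-3 (MSTRG.2762, chromosome 1, 139874157 to 140262452, minus strand), was at 463.1, 539.3 and 470.1 CPM in CCI and at 557.8, 552.2 and 630.3 CPM in sham. The groups did not overlap, CCI 2 coming within a small distance of sham 2. The means were 490.8 ± 42.1 and 580.1 ± 43.5 CPM (SD, n = 3). The log2 fold change of Ntrk3 was −0.24 (SE 0.08, 95% interval −0.44 to −0.04), with an unadjusted p = 0.0269 and an adjusted p = 0.385 (edgeR). This was under 0.58 in size, so Ntrk3 was not called, and its unadjusted p was under 0.05 in 7 of 13 alternative settings.

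Ngfr, the p75 receptor, which sensory neurons and Schwann cells both express (MSTRG.6015, chromosome 10, 83389847 to 83408061, minus strand), was at 459.6, 526.7 and 531.4 CPM in CCI and at 515.2, 612.8 and 555.5 CPM in sham. The groups overlapped, sham 1 lying below CCI 2 and CCI 3. The means were 505.9 ± 40.2 and 561.2 ± 49.1 CPM (SD, n = 3), and the log2 fold change of Ngfr was −0.15 (SE 0.09, 95% interval −0.36 to 0.06), with an unadjusted p = 0.138 and an adjusted p = 0.637 (edgeR). Sort1, the sortilin that binds neurotrophin precursors and steers BDNF into secretory granules (MSTRG.16763, chromosome 2, 211078334 to 211156312, plus strand), was at 129.5, 132.7 and 135.6 CPM in CCI and at 139.3, 147.4 and 138.5 CPM in sham. The groups did not overlap in CPM, but the gap was small beside the spread, with means of 132.6 ± 3.04 and 141.7 ± 4.97 CPM (SD, n = 3). The log2 fold change of Sort1 was −0.10 (SE 0.05, 95% interval −0.22 to 0.03), with an unadjusted p = 0.104 and an adjusted p = 0.586 (edgeR). The median log2 fold change of the 4 tested receptors was −0.16, against 0.01 over all rows tested.

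**Figure D2:**
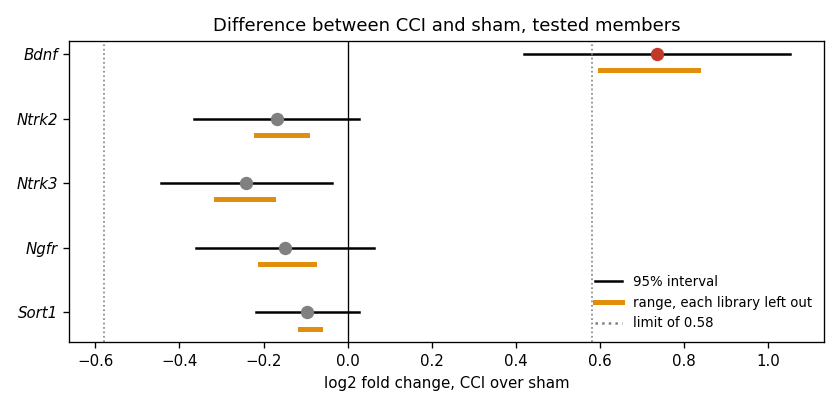
Log2 fold change of CCI over sham (x axis) of the 5 tested genes, with the 95% interval in black and the range over fits that each leave out 1 library in orange. Bdnf lies at 0.73, to the right of the dotted limit of 0.58, and the 4 receptors lie between −0.24 and −0.10.

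Levels per length differed between the members far more than between the groups. By FPKM the order was Ngfr, Ntrk3, Sort1, Ntrk2, Bdnf, Ntf3 and Ntf4 in both groups. In sham the mean FPKM of Ngfr was 156.0 ± 12.9, that of Ntrk3 27.0 ± 1.89, that of Sort1 18.9 ± 0.640, that of Ntrk2 11.9 ± 0.638 and that of Bdnf 3.14 ± 0.272 (SD, n = 3). The corresponding CCI means were 142.3 ± 11.8, 23.1 ± 1.99, 17.9 ± 0.483, 10.8 ± 0.942 and 5.28 ± 0.839 FPKM (SD, n = 3). The ranges of neighbours in this order did not overlap in either group, except those of Ntf3 and Ntf4 in sham. Ngfr was thus 5.78 times the next receptor, Ntrk3, in sham and 6.17 times in CCI. These ratios rest on the row lengths, and the Ntrk3 row joined 8 transcripts while the Ngfr row held 1. In CPM, Ntrk3 had a mean of 580.1 and Ngfr 561.2 in sham, and in CCI the means were 490.8 and 505.9. The sizes of the FPKM ratios below have the same limit.

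The ligand and its receptor were also set against each other inside each library. Bdnf FPKM was 54.2%, 52.5% and 40.7% of Ntrk2 FPKM in CCI 1 to 3 and 28.7%, 28.1% and 22.3% in sham 1 to 3. The ratio was higher in every CCI library (49.1% ± 7.36 against 26.4% ± 3.57, SD, n = 3). Bdnf FPKM lay above sham and Ntrk2 FPKM below sham in every CCI library. The separation of the ratio and its exact two-sided permutation p = 0.1 were therefore fixed by those values and add no further evidence. Ngfr FPKM over the sum of Ntrk2 and Ntrk3 FPKM was 4.20 ± 0.306 in CCI and 4.02 ± 0.472 in sham (SD, n = 3), and the groups overlapped (exact two-sided permutation p = 0.7). The ratio of Ntrk3 to Ntrk2 FPKM was 2.17 ± 0.393 in CCI and 2.25 ± 0.0541 in sham (SD, n = 3; exact two-sided permutation p = 0.9), and it varied more among the CCI libraries, from 1.90 to 2.62, than among the sham libraries, from 2.19 to 2.30.

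**Figure D3:**
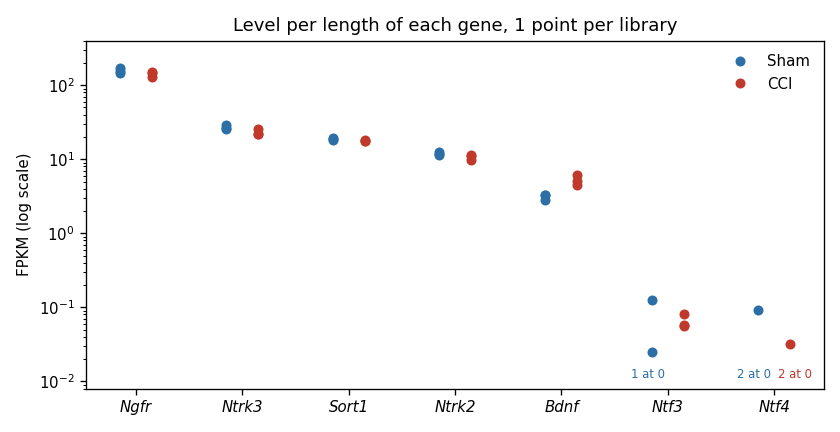
FPKM on a log scale (y axis) of the 7 genes in each sham library (blue) and each CCI library (red), with libraries without a count written as at 0. Ngfr lies highest, at a mean of 156.0 FPKM in sham, and Ntf3 and Ntf4 lie far below Bdnf.

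Summed markers of some cell types differed between CCI and sham in the same direction as some of these genes. In bulk tissue fewer cells of a type and less RNA per cell cannot be told apart. Of 8 macrophage markers 4 rose in CCI (Cd68, Csf1r, Cx3cr1 and Tyrobp) and 0 fell, with a median log2 fold change of 0.63. Their summed level was 134.0, 118.5 and 95.1 CPM in CCI and 73.0, 72.7 and 94.0 CPM in sham, and the order of the CCI libraries was the same as for Bdnf. An order of 3 libraries is easily shared by coincidence, so here and for the genes below it is a description only. Sham 3 stood apart, with the highest macrophage sum of its group and the lowest Bdnf level. The summed level of the 10 sensory neuron markers, of the cells known to make BDNF, was also higher in every CCI library, at 9444, 9008 and 8800 CPM against 7426, 8656 and 8184 CPM in sham, with the CCI libraries in that order again. This was 108.8 to 116.8% of the sham mean, beside 142.8 to 195.9% for Bdnf, and 0 of the 10 markers passed the call, with 4 at an unadjusted p under 0.05 (edgeR). The markers were divided in direction, with 6 log2 fold changes above 0 and 4 below. Their median was 0.04 and their range −0.39 to 0.33, so the higher sum was not shared by all 10. The part of macrophages and of neurons in the Bdnf result was not tested.

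Of 8 markers of proprioceptors and large mechanoreceptors, the neurons that carry TrkC, 1 fell and 0 rose. Pvalb, which encodes the calcium-buffering protein parvalbumin of these neurons, was at 39.3, 48.1 and 45.2 CPM in CCI and at 83.7, 62.2 and 68.6 CPM in sham, a log2 fold change of −0.69 (unadjusted p = 0.0013, adjusted p = 0.144, edgeR), or −0.57 and no longer called without the sham 1 library. Sham 1, the library with the highest Pvalb, also had the highest summed level of skeletal muscle markers, at 395.8 CPM. The part of muscle RNA in the Pvalb values was not tested. The summed level of the 8 large-neuron markers was 3152 to 3458 CPM in CCI and 4160 to 4542 CPM in sham, without overlap, as for Ntrk3. The neurofilament gene Nefh made up 68.4% to 81.6% of this sum, and without Nefh the sum was 726.5 to 1003 CPM in CCI and 793.6 to 888.3 CPM in sham, so the groups overlapped. The part of these neurons in the Ntrk3 values was not tested.

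Of 8 Schwann cell markers 0 passed the call in either direction, with 0 at an adjusted p under 0.05 and 0 at an unadjusted p under 0.05 in edgeR. Their summed level was 6560 to 8978 CPM in CCI and 8011 to 9154 CPM in sham, and CCI 1 was the lowest library for both that sum and Ngfr. Of 8 satellite glia markers and 8 nociceptor markers 0 passed the call, with 1 and 5 at an unadjusted p under 0.05. The satellite glia sum was 2622 to 2719 CPM in CCI and 2487 to 2622 in sham. The nociceptor markers had a median log2 fold change of −0.15, near that of the receptors, with 6 of 8 values below 0, and their sum was 2085 to 2383 CPM in CCI and 2208 to 2554 CPM in sham, with overlap. The part of nociceptors in the receptor values was not tested.

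**Figure D4:**
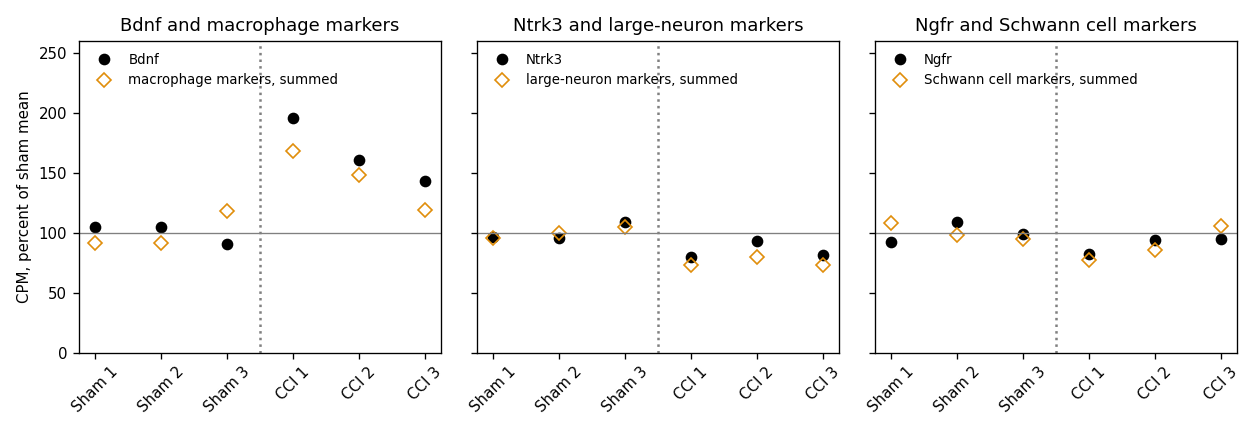
CPM as percent of the sham mean (y axis) of Bdnf, Ntrk3 and Ngfr (black) and of the summed macrophage, large-neuron and Schwann cell markers (orange) in the 6 libraries (x axis). Bdnf lies at 142.8 to 195.9% in CCI and the macrophage sum at 119.0 to 167.7%, while Ntrk3 lies at 79.8 to 93.0% and the large-neuron sum at 72.6 to 79.6%. Nefh alone made up 68.4% to 81.6% of the large-neuron sum, and without Nefh the groups overlapped.

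The genes that act around the receptors were examined in 7 lists: the sortilin family with the proneurotrophin-cleaving enzymes, p75 co-receptors and adaptors, Trk adaptors and ubiquitin ligases, the Ras-MAPK, PI3K-Akt and phospholipase C-gamma arms, and genes that neurotrophins induce. Of 115 genes listed 110 were tested. Only 4 of the 110 were called, 2 higher (Nradd and Gap43) and 2 lower (Frs2 and Mapk7), while 16 had an unadjusted p under 0.05 and 1, Mapk7, an adjusted p under 0.05. The median log2 fold change was 0.02, with 63 values above 0 and 47 below. Over all rows 3.83% were called in either direction and the median was 0.01.

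In the processing list 0 of 9 tested genes were called by edgeR, with 0 at an adjusted p under 0.05 and 1, the sortilin relative Sorcs3, at an unadjusted p under 0.05. Furin, the protease that cleaves the precursors inside the cell, had a log2 fold change of 0.07 (SE 0.06), and Plat, the activator of plasmin that cleaves them outside it, one of 0.20 (SE 0.12). Around p75, 1 of 14 genes was called. Nradd, a p75 relative with a death domain, was at 0.986, 1.48 and 1.52 CPM in CCI and at 0.969, 0.517 and 0.654 CPM in sham. CCI 1 and sham 1 were nearly equal, and the log2 fold change of Nradd was 0.90 (SE 0.33, unadjusted p = 0.0327, adjusted p = 0.411, edgeR). It was 0.81, 0.79, 0.71 and 0.84 and not called without CCI 2, CCI 3, sham 2 and sham 3 respectively, and 0.39 and not called with limma on log2(FPKM + 1). Lingo1, a co-receptor of p75 in the complex that answers myelin inhibitors, was not called, with a log2 fold change of −0.31 (unadjusted p = 0.0077, edgeR), its CCI libraries all below sham.

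Among 24 tested Trk adaptors and ubiquitin ligases 1 was called. Frs2, the docking protein that links Trk receptors to prolonged MAPK signaling, was at 13.2, 13.7 and 15.3 CPM in CCI and at 65.9, 18.7 and 64.1 CPM in sham. Sham 2 lay close to the CCI libraries and far from the other two sham libraries. The log2 fold change of Frs2 was −1.82 (SE 0.45, unadjusted p = 0.0057, adjusted p = 0.243, edgeR) and ranged from −2.21 to −1.56 with each library left out in turn. Rows come from transcripts assembled and merged over libraries, and whether reads of Frs2 were counted in another row in some libraries was not tested. Crk, another adaptor, had the same division within sham at 161.3, 69.8 and 143.2 CPM, with 78.4, 85.5 and 81.3 CPM in CCI, and was not called. The same limit holds for Crk. The row of Shc1, the adaptor that binds the juxtamembrane tyrosine of Trk, had a log2 fold change of −0.08 (SE 0.07). This row also carried the symbol Pygo2, so its counts may not be those of Shc1 alone.

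In the Ras-MAPK arm 1 of 20 genes was called. Mapk7, the kinase ERK5, had 0 counts in each CCI library and 1106, 926 and 1047 in sham. Its sham mean was 12.3 ± 0.555 CPM (SD, n = 3), so against a floor of 3 counts per library it was at least 312-fold lower in CCI, with an adjusted p = 0.0045 (edgeR). The row of Mfap4, which overlaps that of Mapk7 on the opposite strand, had 124, 0 and 195 counts in CCI and 0, 130 and 203 in sham, so it too was empty in single libraries. Whether Mapk7 reads of the CCI libraries were assigned to another row was not tested, so the fold describes this row and may not be that of the gene. No other gene of this arm was called, and Map2k5, the kinase directly above ERK5, had a log2 fold change of −0.06 (SE 0.09) and Mapk3 one of 0.04 (SE 0.06).

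In the PI3K-Akt arm 0 of 17 and in the phospholipase C-gamma and calcium arm 0 of 15 tested genes were called by edgeR, with 0 at an adjusted p under 0.05 and 3 and 2 at an unadjusted p under 0.05. The largest log2 fold changes among these 5 were those of Plcg2, a phospholipase C-gamma, at 0.52 (SE 0.19), and of Camk2d, a calcium-calmodulin kinase, at 0.51 (SE 0.11), both under the limit of 0.58, and Pik3ca, the catalytic subunit of PI3K, was at 0.36 (SE 0.10). Creb1, the transcription factor that binds the cyclic-AMP response element, was uneven within both groups, at 20.9, 17.6 and 45.4 CPM in CCI and 17.2, 19.6 and 63.4 CPM in sham, and whether its reads were assigned to the same row in every library was not tested.

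Among 11 genes that neurotrophins induce, 1 was called and the median log2 fold change was 0.25. Gap43, a growth cone protein of regenerating axons, was at 247.7, 203.7 and 163.6 CPM in CCI and at 104.5, 106.4 and 93.1 CPM in sham, a log2 fold change of 1.02 (SE 0.15, unadjusted p = 0.00036, adjusted p = 0.0974, edgeR). Its CCI libraries stood in the same order as those of Bdnf. Vgf, a neuropeptide precursor named for its induction by neurotrophin, overlapped between the groups at 14.6 to 42.3 CPM in CCI and 4.84 to 39.1 CPM in sham. The immediate early genes Egr1, Fos and Junb had log2 fold changes of 0.45, 0.68 and 0.54 with SEs of 0.35, 0.52 and 0.24, and none was called.

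**Figure D5:**
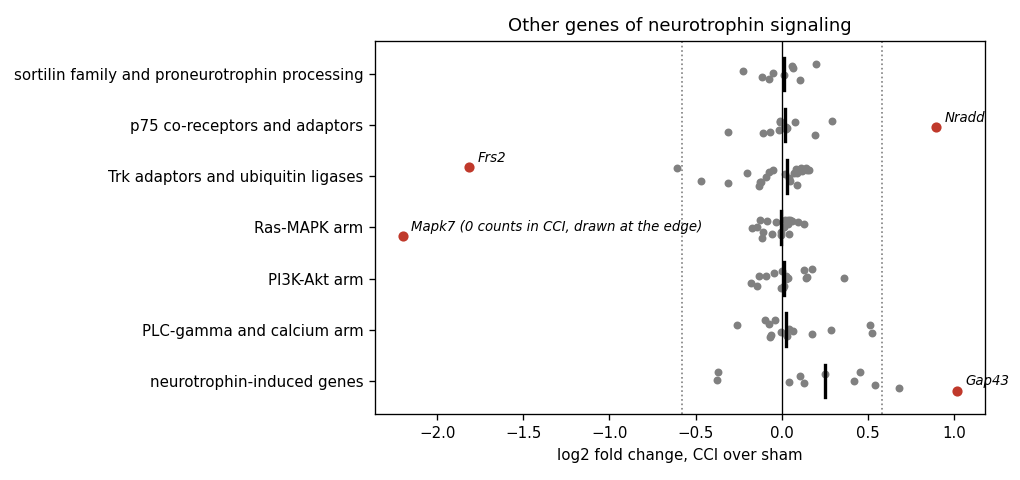
Log2 fold change of CCI over sham (x axis) of the 110 tested genes in 7 lists of neurotrophin signaling, 1 point per gene, with the list median as a black bar, the limits of 0.58 dotted and called genes in red. The list medians lie between −0.01 and 0.25, and Mapk7, without a count in CCI, is drawn at the left edge.

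The annotation carried by the table assigned 120 rows to the KEGG neurotrophin signaling pathway, all 7 members included. Of 113 tested, 4 were called, Bdnf and Jun higher and Mapk7 and Frs2 lower, which is 3.54% against 3.83% of all rows in either direction. An unadjusted p under 0.05 was found for 19, against 10.7% of all rows, and the median log2 fold change was 0.01 with 60 values above 0 and 53 below. Jun, a subunit of the AP-1 transcription factor, was at 167.4, 133.1 and 119.0 CPM in CCI and at 66.0, 67.3 and 68.0 CPM in sham, a log2 fold change of 1.06 (SE 0.12, unadjusted p = 9.2e-05, adjusted p = 0.0712, edgeR). Jun thus differed by more than Bdnf, and its CCI libraries were again in the order CCI 1, CCI 2, CCI 3 from high to low.

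The protein-coding rows whose log2 CPM followed Bdnf most closely across the 6 libraries were Ankrd33b, Lrrc2, RGD1306556, Plekha2 and Cckbr, with Pearson's r of 0.9997, 0.9969, 0.9969, 0.9966 and 0.9962. They were chosen for this likeness, the 6 points share the division into groups, and 454 of 12987 rows reached an r of 0.9 or more, so the values only describe these libraries. Cckbr, a cholecystokinin receptor, had 753, 312 and 223 counts in CCI and 57, 34 and 7 in sham. Its log2 fold change was 3.78, against 1.06 for Ankrd33b and 0.43 for Lrrc2.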

How the data were processed

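RNA of 3 CCI and 3 sham libraries was depleted of ribosomal RNA and sequenced as paired ends after strand-marking synthesis. According to the paper, the authors mapped reads to the rat genome V101 with HISAT and assembled and merged transcripts with StringTie 1.3.0; the submitters' processing notes name HISAT2 2.0. The count values were deposited as whole numbers per gene row without normalization. The authors' FPKM values divide them by row length and column total, with 0 counts listed at 0.0001. The labels do not state whether counting used strand. No symbol was given for 6849 rows, which took 5.37% to 5.72% of a library's counts.

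Rows whose FPKM averaged 0.5 or more were tested with edgeR 4.0.16 (quasi-likelihood, TMM factors, prior degrees of freedom 2.52) and adjusted by Benjamini-Hochberg over all rows. CPM used the same factors. As in the paper, a call needed a log2 fold change of 0.58 or more in either direction at an unadjusted p under 0.05. Alternatives were limma 3.58.1, DESeq2 1.42.0, other filters and scaling, a replicate block and dropping 1 library at a time. Nothing beyond the paper's statement shows that libraries came from separate animals, and p-values otherwise measure only the spread between these samples. The 95% intervals of fold changes come from the edgeR fit and include the spread between libraries, while floors of 3 counts cover counting error only.

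The members and gene lists were chosen with earlier results of these data known. The genes named are the members, the called genes of the lists and of the KEGG pathway, markers beside a member's result and the 5 rows most like Bdnf. Other genes (Sorcs3, Furin, Plat, Lingo1, Crk, Shc1, Map2k5, Mapk3, Plcg2, Camk2d, Pik3ca, Creb1, Vgf, Egr1, Fos and Junb) were chosen after their values were seen. For Ntrk2 the protein-coding row was used.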

Additional observations from a re-analysis of the deposited data

How the results depend on the processing

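In 13 alternatives the 5 tested members kept their direction and their call in 65 of 65 values. Bdnf stayed between 0.59 and 0.83 (log2), Ntrk2 between −0.22 and −0.10, Ntrk3 between −0.31 and −0.18, Ngfr between −0.21 and −0.08 and Sort1 between −0.11 and −0.07. The adjusted p of Bdnf ranged from 0.000119 to 0.352 over these alternatives. DESeq2 placed 1 member, Bdnf, and 751 rows at an adjusted p under 0.05, against 0 members and 25 rows in edgeR. Limma on log2(FPKM + 1) called 550 rows (400 higher, 150 lower) against 1022 (686 and 336), with 13 at an adjusted p under 0.05, and fold changes on that scale are understated for low genes. Without a filter 1373 rows were called, and with a mean FPKM of at least 1 there were 818. With each library left out, 6 (without CCI 2) to 61 (without CCI 1) rows reached an adjusted p under 0.05, 38 without CCI 3 and 8 without sham 1, and 3 to 6 KEGG rows other than members were called against 3, with 5 without CCI 2 and 6 without sham 2. Same-numbered libraries did not deviate together (correlations −0.01, −0.03 and −0.07), so the numbers do not pair the samples. A replicate block left 1 member called and 0 rows at an adjusted p under 0.05 in edgeR, and Nradd was not called with it (log2 fold change 0.92, unadjusted p = 0.0771). The cause of these changes was not tested. Ntf3 and Ntf4 had too few counts for a comparison at this depth.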
